A study of Mus musculus with 12 samples.

Results

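The genes described here encode the nuclear subunits of the 5 complexes of oxidative phosphorylation, followed in the neocortex of mouse embryos at E13.5. They were chosen by symbol alone: probes whose annotated gene symbol begins with Ndufa, Ndufb, Ndufc, Ndufs, Ndufv, Uqcr, Cox4, Cox5, Cox6, Cox7, Cox8 or Atp5, or is one of Sdha, Sdhb, Sdhc and Sdhd, without assembly factors named Ndufaf and without pseudogenes. The rule found 77 probes of 76 genes among the 21998 probes of the array, with 32 genes of complex I, 4 of complex II, 8 of complex III, 16 of complex IV and 16 of complex V. Enough pools gave a value to test 71 of the 76 genes, against 14418 features tested in all.

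The rostral end of the neocortex was compared with its caudal end on arrays that read Cy3 and Cy5 at once. RNA was extracted with Trizol from a rostral and a caudal portion of the neocortex, each pooled from 3 embryos according to the sample descriptions (the series design gives at least 2), and the cDNA was amplified by the SMART method before labelling. There were 3 pools of MF1, an outbred strain, and 3 pools of C57, the inbred C57Bl\6 strain, and no group carried a mutation or received a treatment according to the labels. The RNA of a pool was measured on 2 arrays of opposite labelling, 12 arrays in all. Pools of a strain mix several embryos, and the sources used here do not say whether the pools came from separate litters, so p-values measure the spread between pools, part of which may be technical. All values are log2 ratios of rostral over caudal RNA, where 0 is no difference and 1 is a doubling. A ratio holds no level of expression, so the levels of different genes cannot be compared, and in bulk tissue fewer cells of a type and less RNA per cell cannot be told apart.

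The direction of the ratios is likely and not known. It was set by taking the values as Cy5 over Cy3, a choice based on genes known to be graded. Nr2f1, a nuclear receptor gene known for higher expression caudally, then had a ratio of -1.14, which is no independent check of that choice. Before the dyes were taken into account, the 2 arrays of each pool were compared after removing the mean of arrays of like strain and labelling, and values that run by dye then correlate below 0. The correlation was a Spearman's rho between -0.35 and -0.22 in the MF1 pools and between -0.16 and -0.15 in C57 pools 1 and 2, but 0.00091 in C57 pool 3. Between 4.55% and 18.2% of the probes of an array had no value. The members were more complete, with 3.03% of their values missing against 11.2% of all values. Many respiratory genes are known to have processed pseudogenes, and whether a probe also binds such copies was not tested.

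Oxidative phosphorylation takes electrons from NADH at complex I and from succinate at complex II, passes them through ubiquinone, complex III, cytochrome c and complex IV to oxygen, and uses the proton gradient so made to drive the ATP synthase, complex V. Each complex other than complex II joins subunits of the nuclear genome with subunits of the mitochondrial genome, and only nuclear genes are among the members. In the developing cortex, progenitors are known to rely strongly on glycolysis, and differentiating neurons to depend increasingly on mitochondrial respiration.

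None of the 71 measured members passed the adjusted threshold for a rostral to caudal difference. With limma on pool means and Benjamini-Hochberg adjustment over all features, 0 of 71 had an adjusted p under 0.05 in both strains together, where 0% of all features did, and the members' adjusted p lay between 0.524 and 0.994. The count was also 0 of 71 for MF1 alone, for C57 alone and for the difference between the strains, and under every alternative setting run with limma. At an unadjusted p under 0.05, 2 members were higher rostrally (Atp5pb and Atp5b) against 4.34% of all features, and 0 were lower against 4.64%. These counts depended on the processing. With arrays not centred on their own median 0 members were higher and 2 lower, but the median of all features was then -0.18. With rostral RNA in Cy3 only 0 were higher and 0 lower. The members' standard errors, with a median of 0.136 against 0.160 over all features, bound what these pools could show. The 95% interval of a member's log2 ratio reached at most 0.96 upward, for Atp5k, and at most -1.36 downward, for Cox4i2.

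The members lay slightly above 0 on balance. The fitted ratio was above 0 in 56 members and below 0 in 15, with a median of 0.091 against 0.0091 over all features. By complex, the members above and below 0 numbered 24 and 7 in complex I, 4 and 0 in complex II, 6 and 0 in complex III, 10 and 5 in complex IV, and 12 and 3 in complex V. The medians were 0.099 for complex I, 0.093 for complex II, 0.13 for complex III, 0.049 for complex IV and 0.098 for complex V. The sign of these small medians rested on the scaling. With arrays not centred on their own median the members' median was -0.098, but that of all features was then -0.18. The members thus lay above the median of all features with and without centring. The medians also rested on single pools: without MF1 replicate 3 the members' median was 0.0079. Without C57 replicate 1 it was 0.029, and without C57 replicate 2 it was 0.15.

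**Figure D1:**
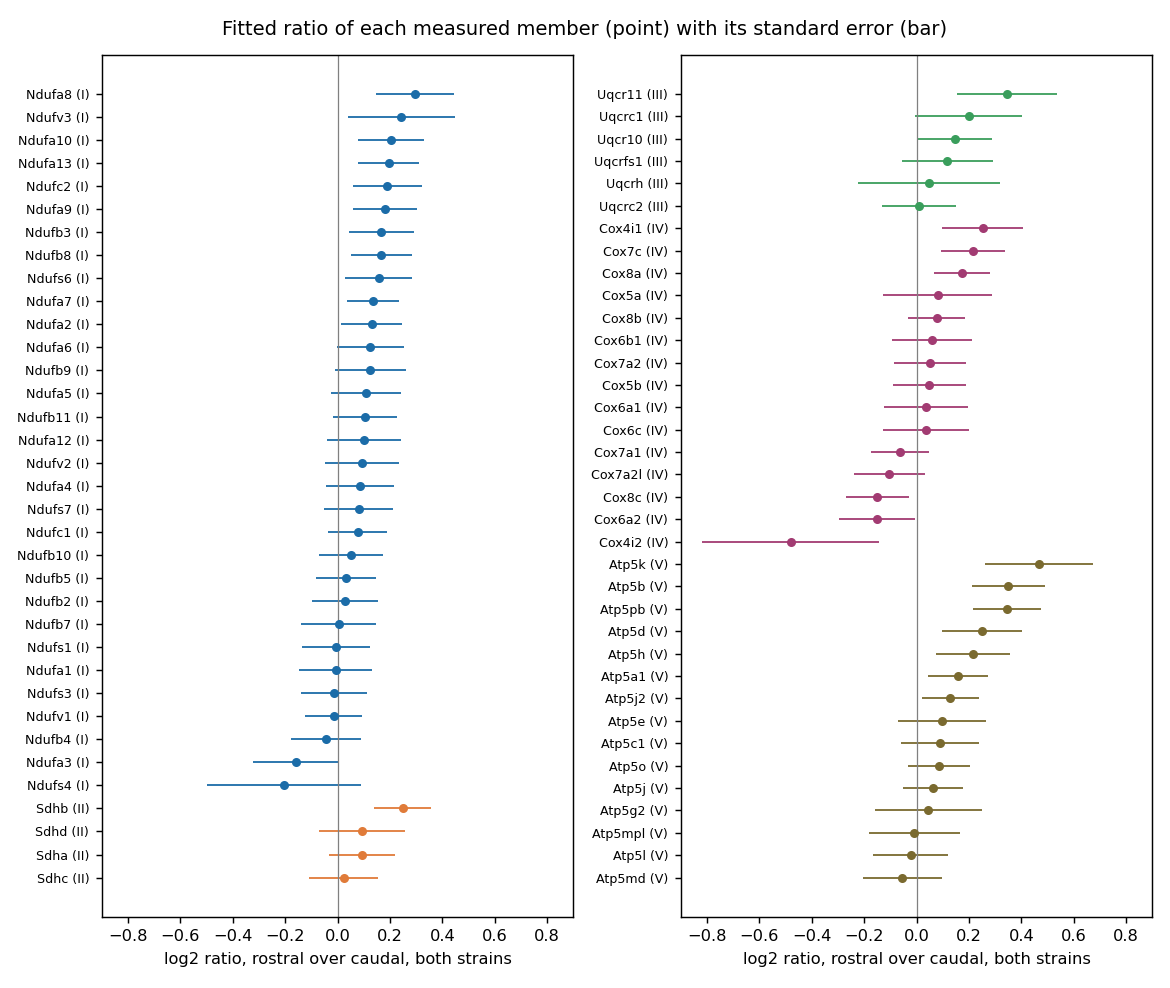
Fitted log2 ratio of rostral over caudal RNA over both strains for the 71 measured members (x axis), 1 row per gene with its complex in brackets, sorted within each complex. Points are limma estimates and bars are their standard errors; 56 points lie above 0, and the range runs from -0.48 for Cox4i2 to 0.47 for Atp5k.

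The pools differed from each other, and the complexes did so together. The median of all members was -0.046, -0.10 and 0.34 in the MF1 pools 1, 2 and 3, and 0.26, -0.037 and 0.16 in the C57 pools 1, 2 and 3. Thus 3 pools, 1 of MF1 and 2 of C57, stood above 0 and the other pools lay just below it. Over the 6 pools these medians averaged 0.096 ± 0.18 (SD, n = 6). In MF1 pool 3, 65 of 71 members were above 0 (91.5%), against 52.9% of all features. In C57 pool 1 the share was 83.1% against 52.5%, and in C57 pool 3 it was 81.4% against 50.5%. Conversely, 33.8% of the members were above 0 in MF1 pool 1 against 47.5% of all features, 35.3% in MF1 pool 2 against 49.9%, and 39.4% in C57 pool 2 against 47.8%.

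The 5 complexes shared this division of the pools. Complex I had medians of -0.084, -0.095 and 0.34 in the MF1 pools, and 0.28, -0.018 and 0.058 in the C57 pools. Complex II had -0.11, -0.16 and 0.34 in the MF1 pools, and 0.43, -0.025 and 0.19 in the C57 pools. Complex III had -0.14, -0.11 and 0.65 in the MF1 pools, and 0.10, -0.019 and 0.21 in the C57 pools. Each of these complexes was therefore below 0 in the same 3 pools. Complex IV had -0.12, -0.16 and 0.33 in the MF1 pools, and 0.19, -0.11 and 0.22 in the C57 pools. Complex V had -0.0010, -0.088 and 0.29 in the MF1 pools, and 0.36, -0.071 and 0.28 in the C57 pools. By sign, the split of the pools was thus seen in all 5 complexes and in both strains. Some medians below 0 were no lower than that of all features, however. In C57 pool 2 all features had -0.020, beside -0.018 for complex I and -0.019 for complex III. In MF1 pool 1 all features had -0.0195, beside -0.0010 for complex V. The 2 arrays of a pool could also differ in sign. Complex I in C57 pool 2 had 0.12 with rostral RNA in Cy5 and -0.20 in Cy3.

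**Figure D2:**
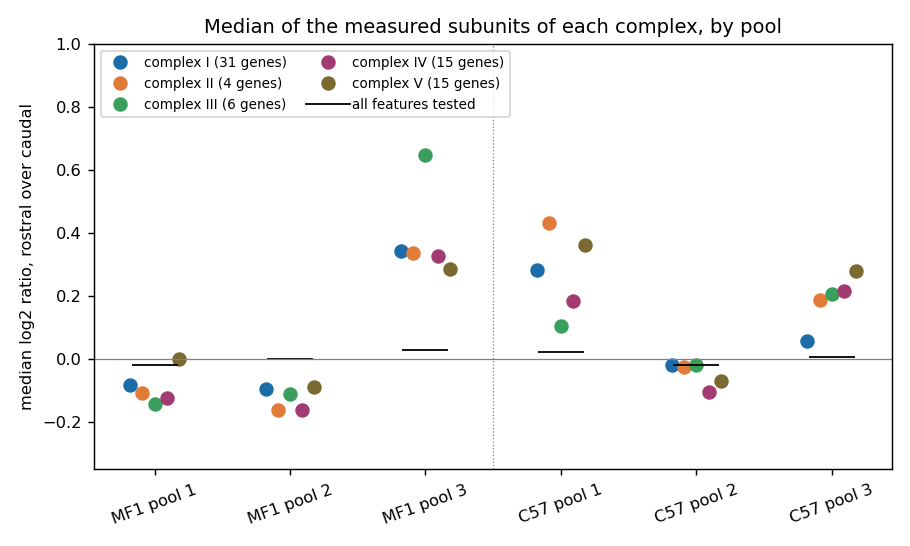
Median log2 ratio of rostral over caudal RNA over the measured subunits of each complex (y axis) in each of the 6 pools (x axis), with black bars for the median of all features tested. In MF1 pool 3, C57 pool 1 and C57 pool 3 all 5 medians lie above 0, and in the other pools all 5 lie below it, while the black bars stay between -0.020 and 0.029.

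Members were also close to each other within a pool. The interquartile range of the members was 0.226, 0.314 and 0.395 in the MF1 pools, against 0.506, 0.417 and 0.507 over all features. In the C57 pools it was 0.307, 0.263 and 0.262, against 0.549, 0.619 and 0.583 over all features. Subtracting from each member the median of the other members, pool by pool, lowered its SD over the pools in 55 of the 68 members that had 6 pools (80.9%), and in 4205 of 10528 other features (39.9%). The median SD of the members was 0.20 after this step and 0.29 before it, and that of the other features was 0.39 after and 0.35 before. By complex the SD fell in 24 of 29 members of complex I, 4 of 4 of complex II, 4 of 6 of complex III, 10 of 14 of complex IV and 13 of 15 of complex V. The members whose SD did not fall were Ndufa7, Ndufa9, Ndufc1, Ndufs4, Ndufv3, Uqcrh, Uqcr11, Cox6a2, Cox8a, Cox8b, Cox8c, Atp5a1 and Atp5b. They are named as a complete list and were not chosen by the rule for named genes. All members of a pool share its RNA, its amplification and its 2 arrays, so these measures describe the pools and are no test. The members also had a lower median standard error than all features (0.136 against 0.160) and fewer missing values. Neither measure was taken for the ribosomal lists described below, whose medians divided the pools in the same way. Closeness is therefore not shown to be particular to the members.

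The 2 arrays of a pool mostly kept the sign of the pool. With rostral RNA in Cy5 and in Cy3, the median of the members was -0.083 and -0.065 in MF1 pool 1, -0.23 and 0.017 in MF1 pool 2, and 0.28 and 0.42 in MF1 pool 3. In C57 pool 1 it was 0.36 and 0.20, in C57 pool 2 0.099 and -0.20, and in C57 pool 3 0.28 and 0.021. The arrays of MF1 pool 3 and of C57 pool 1 therefore stood apart from 0 in both dye orientations, and those of MF1 pool 2 and C57 pool 2 fell on both sides of 0.

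**Figure D3:**
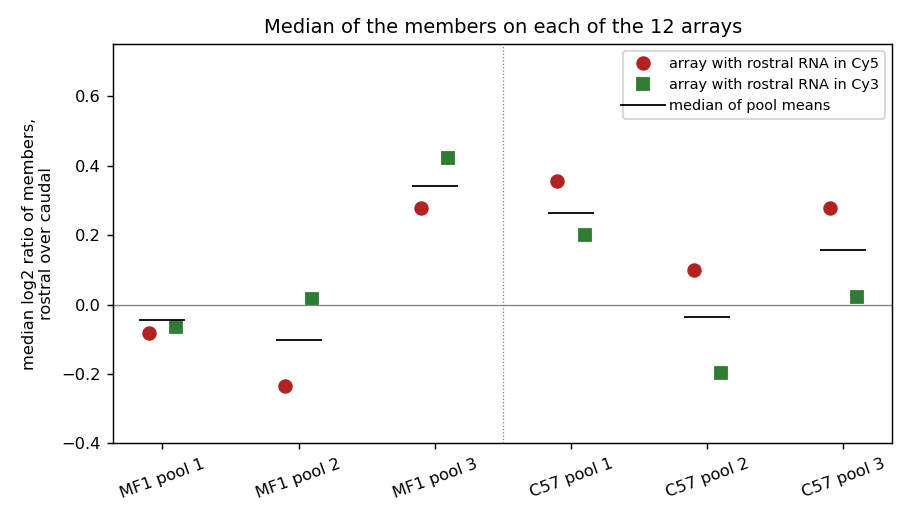
Median log2 ratio of rostral over caudal RNA over the members (y axis) on each of the 12 arrays, grouped by pool (x axis). Red circles are arrays with rostral RNA in Cy5, green squares arrays with rostral RNA in Cy3, and black bars the median of the pool means; both arrays of MF1 pool 3 lie at 0.28 or above.

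The other genes of the pathway and of neighbouring mitochondrial processes were read from lists set by function. Among the genes of the mitochondrial ribosome, which translates the mitochondrially encoded subunits, 52 of 71 were above 0, with a median of 0.087 and 0 past the adjusted threshold. Its pool medians were -0.12, -0.11 and 0.40 in MF1 and 0.28, -0.073 and 0.16 in C57. Cytosolic ribosomal proteins, which have no part in respiration, had 56 of 66 genes above 0, with a median of 0.076. Their pool medians were -0.12, -0.22 and 0.40 in MF1 and 0.16, -0.078 and 0.21 in C57. The 3 pools above 0 and the 3 pools below 0 were thus those of the respiratory subunits in both ribosomal lists as well.

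Of the citric acid cycle and pyruvate dehydrogenase, which supply the electrons, 13 of 17 genes were above 0, with pool medians of -0.028, -0.099 and 0.34 in MF1 and 0.15, -0.043 and 0.13 in C57. Pdha1, a catalytic subunit of pyruvate dehydrogenase, had -0.35 ± 0.49 (SD, n = 6) and Pdhb, its partner subunit, 0.36 ± 0.63. Of the electron carriers and coenzyme Q synthesis genes, 7 of 13 were above 0, with pool medians of -0.13, -0.058 and 0.10 in MF1 and 0.15, -0.11 and 0.19 in C57. These too were below 0 in the same 3 pools. Etfb, a subunit of the electron transfer flavoprotein, had 0.21, 0.33 and 0.084 in the MF1 pools, and 0.38, 0.14 and 0.49 in the C57 pools. Its values were above 0 in 6 of 6 pools, and its limma adjusted p was 0.538. Coq10b, a coenzyme Q binding protein, had -0.46 ± 0.87 (SD, n = 5).

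Assembly factors, which build the complexes but are not part of them, had 18 genes above and 17 below 0 in the fit, with a median of 0.012. Their pool medians of -0.10, -0.089 and 0.31 in MF1 and 0.22, -0.21 and 0.054 in C57 were below 0 in the same pools as those of the members. Acad9, an assembly factor of complex I, had 0.21 ± 0.32 and Coa6, one of complex IV, -0.28 ± 0.39 (SD, n = 6 each). The regulators of mitochondrial biogenesis did not share the division of the pools. Of these 12 genes, 3 were above 0, and their pool medians were 0.024, 0.043 and 0.062 in MF1 and -0.19, -0.11 and -0.32 in C57. Gabpa, the DNA-binding subunit of the GA-binding protein, had -0.26 ± 0.33 and Nrf1, a transcription factor of respiratory genes, -0.21 ± 0.32 (SD, n = 6 each). In these lists 0 genes passed the adjusted threshold with limma. At an unadjusted p under 0.05, 3 of 71 genes of the mitochondrial ribosome and 1 of 13 electron carriers were higher rostrally, against 4.34% of all features, and 1 of 17 genes of the citric acid cycle (Pdha1) and 1 of 66 of the cytosolic ribosome (Rps4l) were lower, against 4.64%. Of the mitochondrial ribosome, Mrps24 had 0.42 ± 0.34 and Mrpl3 0.32 ± 0.22 (SD, n = 6 each). Of the cytosolic ribosome, Rps4l had -0.56 ± 0.48 and Rpl3 0.22 ± 0.17 (SD, n = 6 each).

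**Figure D4:**
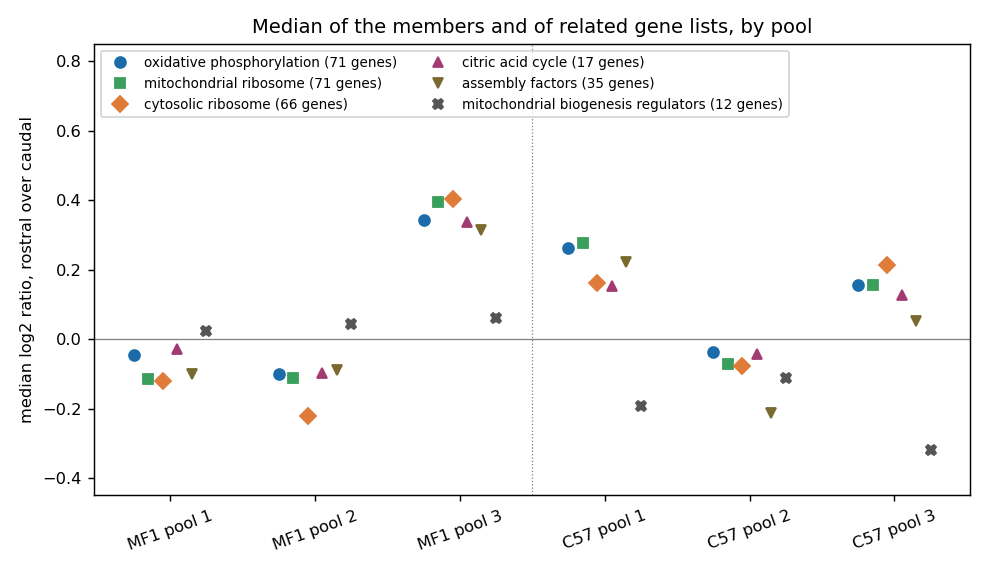
Median log2 ratio of rostral over caudal RNA (y axis) of the members and of 5 related gene lists in each of the 6 pools (x axis). In MF1 pool 3 the members stand at 0.34, the mitochondrial ribosome at 0.40 and the cytosolic ribosome at 0.40, whereas the regulators of mitochondrial biogenesis stand at 0.062.

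Markers of other cells were read beside the members, since a dissected pool can hold more or less of a neighbouring tissue. Red blood cell genes had medians of -0.53, -0.38 and 0.61 in the MF1 pools and 0.00050, -0.34 and 0.080 in the C57 pools, from 4 of 9 listed genes (Hba-a1, Hba-x, Hbb-y and Gata1). These medians were below 0 in the same 3 pools as those of the members, but the 4 genes did not all go together. Gata1 was above 0 in each of the 5 pools that gave a value, with 0.245 and 0.28 in MF1 pools 1 and 2. Hba-a1 had -0.34 in C57 pool 1, where the members' median was 0.26. The part of these genes in the result was not tested. The median of the choroid plexus genes was below 0 in 6 of 6 pools, between -1.69 in C57 pool 3 and -0.10 in C57 pool 1, from 5 of 7 listed genes, of which Aqp1 alone was below 0 in each pool. Genes of meninges and mesenchyme (8 of 11) had medians of 0.043, 0.074 and -0.19 in MF1 and -0.44, -0.44 and -0.77 in C57. Cortical progenitor genes (8 of 8) had 0.086, 0.031 and -0.028 in MF1 and 0.094, 0.067 and 0.38 in C57. Postmitotic neuron genes (9 of 9) had 0.14, -0.23 and 0.11 in MF1 and 0.13, -0.020 and 0.38 in C57. Intermediate progenitor genes (5 of 5) had 0.55, 0.19 and -0.056 in MF1 and 0.060, 0.062 and -0.0075 in C57. In the 3 pools where the median of the members lay below 0, the medians of both progenitor lists lay above 0. Both also lay above 0 in C57 pool 1, where the members' median was 0.26. In MF1 pool 3 both lay below 0, and in C57 pool 3 only that of the intermediate progenitors did. The median of the neuron list lay below 0 in MF1 pool 2 and C57 pool 2 and above 0 in the other pools, MF1 pool 1 among them. Summed levels of the markers and markers at 0 cannot be given from ratios. Medians for blood vessels, microglia and the ventral telencephalon lay between -0.14 and 0.12, -0.039 and 0.17, and -0.64 and 0.060 over the pools.

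In complex I, NADH dehydrogenase, the core subunits that carry the electron path and the accessory subunits were compared by their counts. Of the 5 measured nuclear core subunits, 2 were above 0 and 3 below it, with a median of -0.0054. Of the 26 accessory subunits, 22 were above 0 and 4 below it, with a median of 0.12. The 2 subgroups were not tested against each other.

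Ndufa8, an accessory subunit, had ratios of 0.041, 0.32 and 0.996 in the MF1 pools, and 0.13, 0.24 and 0.045 in the C57 pools. All 6 values were above 0, with 1 high value in MF1 pool 3, and the mean was 0.29 ± 0.36 (SD, n = 6; limma adjusted p = 0.598). Ndufa13, an accessory subunit also known as GRIM-19, had 0.058, 0.11 and 0.49 in the MF1 pools, and 0.23, -0.018 and 0.29 in the C57 pools. Its mean was 0.19 ± 0.19, and 5 of 6 pools were above 0. Ndufa10, another accessory subunit, had 0.049 and 0.39 in MF1 pools 1 and 3, and 0.19, 0.14 and 0.24 in the C57 pools. All 5 measured values were above 0, and MF1 pool 2 gave none. Ndufa9, an accessory subunit, had -0.17, 0.41 and 0.13 in the MF1 pools, and 0.36, 0.063 and 0.30 in the C57 pools. The adjusted p of Ndufa13, Ndufa10 and Ndufa9 lay between 0.654 and 0.687 with limma. Ndufa7, an accessory subunit, was above 0 in 6 of 6 pools as well, with 0.040, 0.036 and 0.0050 in the MF1 pools and 0.36, 0.18 and 0.21 in the C57 pools. Ndufa7 was chosen after its values were seen.

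The largest spread among the tested members of complex I was that of Ndufs4, an accessory subunit needed for full activity of the complex. It had -0.22, -0.33 and 0.46 in the MF1 pools, and -0.82, 0.96 and -1.26 in the C57 pools. Its SD over the pools was 0.81, and its C57 values lay far on both sides of 0. Ndufs4 was chosen for its spread after its values were seen. Ndufa4, which the rule places in complex I and which is now known as a subunit of complex IV, had 0.037, -0.12 and 0.29 in the MF1 pools, and 0.44, -0.19 and 0.063 in the C57 pools. Its values lay on both sides of 0 in each strain. Ndufab1, the mitochondrial acyl carrier protein, was measured in C57 alone, at -0.99, 0.43 and 1.40, and was not tested.

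Complex II, succinate dehydrogenase, also catalyses a step of the citric acid cycle. Sdhb, its iron-sulfur subunit, had 0.17, -0.060 and 0.14 in the MF1 pools, and 0.63, 0.34 and 0.27 in the C57 pools. Its means were 0.081 ± 0.12 in MF1 and 0.42 ± 0.19 in C57 (SD, n = 3 each). The difference of -0.34 between MF1 and C57 had a limma adjusted p of 0.944. Sdha, the flavoprotein, had -0.010, -0.26 and 0.34 in the MF1 pools, and 0.38, 0.096 and 0.0070 in the C57 pools. Sdhd, a membrane anchor, had -0.46, -0.055 and 0.50 in the MF1 pools, and 0.48, -0.18 and 0.27 in the C57 pools. Sdhc, the other anchor, had -0.20, -0.28 and 0.33 in the MF1 pools, and 0.32, -0.15 and 0.11 in the C57 pools. The 2 anchors thus took the sign of the members' median in every pool. The adjusted p of the complex II genes over both strains lay between 0.568 and 0.967.

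Complex III, the cytochrome bc1 complex, passes electrons from ubiquinol to cytochrome c. Uqcr11, a small subunit, had -0.046, 1.39 and 0.56 in the MF1 pools, and 0.21, -0.11 and 0.067 in the C57 pools. Its mean of 0.34 ± 0.56 (SD, n = 6; limma adjusted p = 0.627) included 1 value, in MF1 pool 2, far above the others. Uqcr10, another small subunit, had -0.13, -0.26 and 0.51 in the MF1 pools, and 0.40, 0.0030 and 0.35 in the C57 pools. Uqcrc1, a core protein of the complex, had -0.16, 0.025 and 1.17 in the MF1 pools, and -0.21, -0.11 and 0.48 in the C57 pools. Uqcrfs1, the Rieske iron-sulfur protein, had 0.098, -0.47 and 0.74 in the MF1 pools, and -0.0038, -0.037 and 0.37 in the C57 pools. For Uqcrc1 and Uqcrfs1 the fitted ratio was -0.0070 and -0.037 without MF1 replicate 3, against 0.20 and 0.12 with it. Uqcrb and Uqcrq, which had values in 3 and 4 pools, were not tested: Uqcrb had -0.95 in MF1 pool 2 and 0.37 and 1.20 in C57 pools 2 and 3, and Uqcrq had -0.31, -0.098 and 0.24 in the MF1 pools and 1.04 in C57 pool 3. Cyc1, cytochrome c1 of this complex, has a symbol that the rule does not cover, and it had 0.16 ± 0.68 (SD, n = 6).

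Complex IV, cytochrome c oxidase, is the complex in which several nuclear subunits exist as isoforms of different tissues. Cox7c, a subunit with no such partner, had 0.10, -0.14 and 0.33 in the MF1 pools, and 0.57, 0.12 and 0.31 in the C57 pools. Its mean was 0.22 ± 0.24 (SD, n = 6), and 5 of 6 pools were above 0. Cox4i1, the general isoform of subunit 4, had -0.24, -0.21 and 0.71 in the MF1 pools, and 0.44, 0.43 and 0.39 in the C57 pools. All 3 C57 values were above 0 and close together, and the MF1 values spread widely.

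Cox4i2, the isoform of subunit 4 known for expression in lung and induction by low oxygen, had the widest spread of all members. It gave -1.04 and -2.26 in MF1 pools 1 and 3, and 1.41 and -0.036 in C57 pools 1 and 2, with no value in the other pools. Its values averaged -1.65 in MF1 and 0.69 in C57 (n = 2 each). The MF1 minus C57 difference was -2.34 ± 0.68 (SE), with a limma adjusted p of 0.752 and an unadjusted p of 0.0197. In both strains together the mean was -0.48 ± 1.56 (SD, n = 4).

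Cox8a, the general isoform of subunit 8, had -0.19, -0.019 and -0.078 in the MF1 pools, and 0.37, 0.65 and 0.31 in the C57 pools. Every MF1 value was below 0 and every C57 value above it. The means were -0.094 ± 0.086 in MF1 and 0.44 ± 0.18 in C57 (SD, n = 3 each), a difference of -0.54 with a limma adjusted p of 0.800. These were the 2 members with an unadjusted p under 0.05 for the strain difference, against 6.1% of all features. At that threshold 1 member (Cox4i2) differed from 0 in MF1 against 4.36% of all features, and 3 (Sdhb, Cox8a and Atp5k) in C57 against 9.71%. In each of these comparisons the share of members was below that of all features. The fit used 1 shared spread for both strains, although their arrays differed. The SD of an array, estimated from its median absolute deviation, averaged 0.487 in MF1 and 0.745 in C57. Missing values averaged 7.73% of an array in MF1 and 14.6% in C57.

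The isoforms of complex IV known mainly from heart, skeletal muscle, testis or lung (Cox4i2, Cox6a2, Cox7a1, Cox8b and Cox8c) had medians of other signs than the general isoforms in MF1 pool 3 and C57 pool 1. Their medians were -0.021, -0.0015 and -0.15 in the MF1 pools, and -0.055, -0.0045 and 0.14 in the C57 pools. The general isoforms Cox4i1, Cox6a1, Cox6b1, Cox7a2 and Cox8a had medians of -0.18, -0.18 and 0.57 in the MF1 pools, and 0.32, -0.16 and 0.25 in the C57 pools. Single isoforms of other tissues had mixed signs in MF1 pool 3 and C57 pool 1. Cox7a1 (0.050) and Cox8b (0.18) were above 0 in MF1 pool 3, and the others of the list below. Cox4i2 (1.41) and Cox7a1 (0.029) were above 0 in C57 pool 1, and the others below. Cox7b2, which was not tested and is not in the list, had 1.35 in MF1 pool 3. The difference between these subgroups was not tested.

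Of the isoforms of other tissues, Cox6a2, of heart and skeletal muscle, had -0.021, 0.14 and -0.16 in the MF1 pools, and -0.77, -0.25 and 0.15 in the C57 pools. Cox8c, of testis, had 0.17, 0.055 and -0.15 in the MF1 pools, and -0.53, -0.0045 and -0.44 in the C57 pools. Cox8b, of heart and skeletal muscle, had -0.018, -0.058 and 0.18 in the MF1 pools, and -0.055, 0.11 and 0.30 in the C57 pools. The lowest of these values, those of Cox6a2 and Cox8c in C57 pool 1, fell in a pool where the members' median was 0.26. Cox7a1, of heart and skeletal muscle, had -0.31, -0.35 and 0.050 in the MF1 pools, and 0.029, 0.057 and 0.14 in the C57 pools. Cox7b2, of testis, had 1.35 in MF1 pool 3 and 0.78 in C57 pool 3 alone and was not tested.

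Cox6a1, the general partner of Cox6a2, had -0.18, -0.18 and 0.63 in the MF1 pools, and 0.22, -0.40 and 0.14 in the C57 pools. It took the sign of the members' median in every pool. Cox6b1 had -0.16, -0.34 and 0.57 in the MF1 pools, and 0.32, -0.16 and 0.13 in the C57 pools, with the same signs. Cox7a2, the general partner of Cox7a1, had 0.00, 0.0085 and 0.34 in the MF1 pools, and 0.19, -0.47 and 0.25 in the C57 pools. Cox7a2l, related in sequence to Cox7a2 and known for joining complexes III and IV, had -0.41, -0.34 and 0.18 in the MF1 pools, and -0.053, -0.28 and 0.28 in the C57 pools. The adjusted p of the complex IV genes over both strains lay between 0.629 and 0.958 with limma.

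The promoter of Cox6a1 is shown because it holds both motifs named further on. It lies on the minus strand at chr5:115348959-115349208 of GRCm38.p6, in RefSeq sequence, and gives the 250 bases before the start of the gene, 5′ to 3′. Capitals mark first the 10 letters of the NRF1 motif, the core GCATGCGC with GC directly before it, which begins 162 bases before the start, and then the ETS motif CCGGAAG read on the other strand, which begins 16 bases before the start.
Cox6a1: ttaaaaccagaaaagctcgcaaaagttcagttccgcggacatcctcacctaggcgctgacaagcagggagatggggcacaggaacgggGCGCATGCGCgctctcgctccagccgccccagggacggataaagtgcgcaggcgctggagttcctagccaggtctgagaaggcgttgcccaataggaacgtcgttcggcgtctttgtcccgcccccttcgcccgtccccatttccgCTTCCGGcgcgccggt

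**Figure D5:**
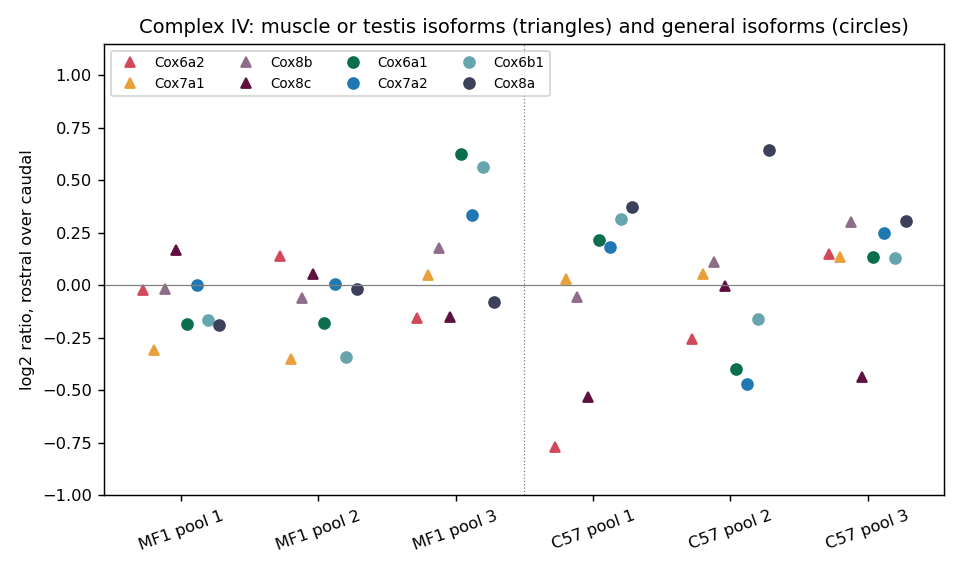
Log2 ratio of rostral over caudal RNA (y axis) of 8 isoform genes of complex IV in each of the 6 pools (x axis). Triangles are isoforms of heart, skeletal muscle or testis and circles are general isoforms; in MF1 pool 3 Cox6a1 is at 0.63, Cox6b1 at 0.57 and Cox7a2 at 0.34, Cox8a is at -0.078, and the triangles lie between -0.16 and 0.18. Cox4i1 and Cox4i2 are not drawn.

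Complex V, the ATP synthase, was divided into F1, which makes ATP, and the other subunits, of the peripheral stalk and the membrane part. Protons pass through the membrane part. The 5 measured subunits of F1 were all above 0 in the fit, with a median of 0.16. Of the 10 others, 7 were above and 3 below 0, with a median of 0.074. Atp5pb, subunit b of the peripheral stalk, had 0.22, 0.081 and 0.55 in the MF1 pools, and 0.74, 0.16 and 0.31 in the C57 pools. All 6 pools were above 0. Its mean of 0.34 ± 0.25 (SD, n = 6) is a fold of 1.27, with a 95% interval of 0.035 to 0.65 on the log2 scale, an unadjusted p of 0.0340 and a limma adjusted p of 0.524.

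Atp5b, the catalytic beta subunit of F1, had 0.67, 0.37 and 0.0060 in the MF1 pools, and 0.036, 0.38 and 0.64 in the C57 pools. All 6 pools were above 0, and the lowest values fell in MF1 pool 3 and C57 pool 1, where the members' medians were highest. The mean was 0.35 ± 0.28 (SD, n = 6), with an unadjusted p of 0.0417 and a limma adjusted p of 0.538. Atp5k, subunit e of the membrane part, had 0.38, 0.047 and 0.090 in the MF1 pools, and 1.66, 0.48 and 0.14 in the C57 pools. All 6 pools were again above 0, and 1 value, in C57 pool 1, stood far above the others. The mean was 0.47 ± 0.61 (SD, n = 6; limma adjusted p = 0.569). With only the arrays that carried rostral RNA in Cy3, the ratio of Atp5k was -0.12.

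Counting the members on 1 side of 0 in every pool, 5 of 68 members with 6 pools were above 0 in each (Ndufa7, Ndufa8, Atp5pb, Atp5b and Atp5k), where 3.47% of features with 6 pools were, and 0 were below 0 in each, where 2.5% were. Of the 5, 3 belong to complex V. A further 12 of the 68 members were above 0 in 5 of 6 pools, 8 of them in complex I, where 10.8% of features with 6 pools were.

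Atp5d, the delta subunit of F1, had 0.092, 0.59 and 0.80 in the MF1 pools, and 0.025, -0.38 and 0.37 in the C57 pools. Its mean was 0.49 ± 0.37 in MF1 and 0.0048 ± 0.37 in C57 (SD, n = 3 each), and the difference of 0.49 had a limma adjusted p of 0.944. Atp5g2, an isoform gene of the membrane ring subunit c, had -0.12, -0.75 and 0.80 in the MF1 pools, and 0.36, -0.056 and 0.038 in the C57 pools. Its values took the sign of the members' median in every pool. Atp5g1, the other isoform gene of that subunit with values here, had 0.19, -0.41 and 0.42 in the MF1 pools and none in C57, and was not tested. Atp5md, a small membrane subunit, had -0.055 ± 0.33 (SD, n = 6) from 1 of its 2 probes, the other having no value in any pool. Atpif1, an inhibitor of the ATP synthase that is not among the members, had 0.12 ± 0.24 (SD, n = 6).

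The promoters of 4 genes of complex V are shown, those of Atp5pb and Atp5b for their smallest p among the members and those of Atp5k and Atp5g2 because they hold the NRF1 motif. Each gives the 250 bases before the gene's start, 5′ to 3′, from RefSeq on GRCm38.p6, at chr3:105959264-105959513 on the minus strand for Atp5pb, chr10:128083057-128083306 on the plus strand for Atp5b, chr5:108434400-108434649 on the minus strand for Atp5k and chr15:102671048-102671297 on the minus strand for Atp5g2. Capitals mark the NRF1 motif, which begins 50 bases before the start in Atp5k and 42 bases before it in Atp5g2. Neither motif is in the other 2 windows, so these have no capitals.
Atp5pb: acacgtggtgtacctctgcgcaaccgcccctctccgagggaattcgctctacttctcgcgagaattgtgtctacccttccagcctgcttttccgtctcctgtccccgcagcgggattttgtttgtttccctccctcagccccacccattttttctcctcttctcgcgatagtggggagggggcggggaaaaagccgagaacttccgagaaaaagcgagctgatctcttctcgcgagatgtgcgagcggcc
Atp5b: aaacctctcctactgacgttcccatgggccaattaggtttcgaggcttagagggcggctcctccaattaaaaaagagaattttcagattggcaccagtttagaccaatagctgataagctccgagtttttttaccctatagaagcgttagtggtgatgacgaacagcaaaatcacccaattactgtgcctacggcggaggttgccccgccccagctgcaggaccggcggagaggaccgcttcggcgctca
Atp5k: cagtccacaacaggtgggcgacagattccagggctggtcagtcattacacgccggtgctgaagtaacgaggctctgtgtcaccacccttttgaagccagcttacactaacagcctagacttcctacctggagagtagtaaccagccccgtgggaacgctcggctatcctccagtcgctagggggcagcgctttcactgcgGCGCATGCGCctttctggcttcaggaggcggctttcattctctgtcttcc
Atp5g2: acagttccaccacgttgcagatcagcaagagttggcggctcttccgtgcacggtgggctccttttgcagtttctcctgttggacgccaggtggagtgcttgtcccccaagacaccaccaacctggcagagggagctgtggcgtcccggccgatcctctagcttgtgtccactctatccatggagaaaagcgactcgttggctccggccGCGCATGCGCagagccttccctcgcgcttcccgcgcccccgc

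NRF1, the GA-binding protein (an ETS factor also called NRF2) and YY1 are transcription factors known for regulating nuclear genes of respiration. RefSeq promoter windows were at hand for 62 of the 76 members and for 27025 genes in all, 17492 of them protein-coding. The letters were searched on both strands in the 250 bases before the start. The NRF1 motif, GCATGCGC with GC directly before it, was in 3 of 62 members (4.84%; Cox6a1, Atp5k and Atp5g2), against 0.877% of all genes and 1.21% of protein-coding genes. The core GCATGCGC alone, which the longer motif contains, was in 7 of 62 (11.3%), against 2.56% of all genes and 3.32% of protein-coding genes. The ETS motif CCGGAAG was in 11 of 62 (17.7%), against 7.83% and 10.2%. The YY1 motif AAGATGGC was in 1 of 62 (1.61%), against 1.83% and 1.77%. The median GC content of the windows was 57.6% for the members, against 52.4% for all genes and 55.6% for protein-coding genes. The shares are descriptions, since a match is not a binding site and the arrays hold no measure of binding.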

How the data were processed

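The authors deposited 1 log2 ratio per probe and array. That unit was read from the values, which are signed, lie around 0 and stop at 16.61, that is, log2(1e+05). No label or header states how images were read or spots corrected and normalized, and signal over background is unknown, so the number of arrays limits the precision. Probe symbols come from the platform annotation, where 16864 probes have 1 symbol, 139 several and 4995 none. Each array was turned to rostral over caudal by its dyes and centred on its median, 701 values at the ceiling were set missing, the 2 arrays of a pool were averaged, and probes of a symbol were averaged. Features with 2 or more pools in each strain were fitted in R 4.3.3 with limma 3.58.1 (lmFit, eBayes, a mean per strain) and adjusted by Benjamini-Hochberg. The procedure was tested on simulated data drawn independently for each feature. That test therefore did not cover shifts that the genes of a pool share. Named genes were, in each complex, the 4 with the smallest p over both strains, all measured genes of the isoform families, the 5 with the smallest p for the strain difference, members whose probes disagree in sign, and 2 genes per related list; exceptions are stated. Members and lists were chosen with earlier results of these data known. Alternatives covered centring, scaling, ceiling values, 1 dye orientation, missing values, separate probes, a replicate block, a fit to single arrays (pool as a random block), and each pool left out.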

Additional observations from a re-analysis of the deposited data

Results flagged for a closer look

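Cox8a, the general isoform of cytochrome c oxidase subunit 8, had log2 ratios of rostral over caudal RNA below 0 in 3 of 3 MF1 pools and above 0 in 3 of 3 C57 pools. The MF1 minus C57 difference was -0.54, and limma gave it an unadjusted p of 0.0418 and an adjusted p of 0.800, so it failed the correction. Cox8a was the only 1 of 68 members with 6 pools whose strains lay on opposite sides of 0 (1.47%), against 214 of 10596 features (2.02%).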

How the results depend on the processing

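Members past the adjusted threshold numbered 0 in all 4 comparisons under every alternative run, with the smallest adjusted p of a member between 0.251 and 0.802 for both strains, 0.521 and 1 for MF1, 0.144 and 0.791 for C57, and 0.342 and 1 for the strain difference. Over all features, 6 passed for both strains among features complete on 12 arrays, 21 for both strains and 8 for C57 with the pool as a random block, 188 for C57 with rostral RNA in Cy3 only and 118 for C57 with rostral RNA in Cy5 only. Pool numbers are shared between the strains only as numbers; with them as a replicate block the median of all members was 0.092 and no call changed.

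Without centring, the median was -0.098 for all members and -0.089 for complex I, and the ratio changed sign for Ndufa9 (-0.0073), Sdha (-0.096), Sdhd (-0.096), Sdhc (-0.17), Uqcr10 (-0.044), Uqcrfs1 (-0.071), Cox8a (-0.015), Cox6a1 (-0.15), Cox6b1 (-0.13), Cox7a2 (-0.14), Cox8b (-0.11), Ndufa4 (-0.10) and Atp5g2 (-0.14); the median of all features was then -0.18. With rostral RNA in Cy3 only it changed sign for Sdha (-0.027), Uqcrfs1 (-0.077), Atp5k (-0.12), Atp5d (-0.071), Cox7a1 (0.18), Cox7a2l (0.25), Cox8c (0.025) and Ndufa4 (-0.0036), and with rostral RNA in Cy5 only for Cox6a1 (-0.14), Cox7a2 (-0.088) and Atp5g2 (-0.079). Leaving out the centring moved every gene with values in 6 pools by the same amount, as from 0.29 to 0.11 for Ndufa8 and from -0.15 to -0.34 for Cox6a2. The changes of sign without centring thus fell on genes whose ratio was small and above 0. The cause of the changes with 1 dye orientation was not tested.

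Members with an unadjusted p under 0.05 over both strains numbered 0 to 4 higher and 0 to 2 lower over the alternatives; 1 was higher without MF1 replicate 2, MF1 replicate 3, C57 replicate 1, C57 replicate 2 or C57 replicate 3, against 2 with every pool. With 1 pool left out, the median of all members ran from 0.0079 to 0.15. The ratio ran from -0.033 to 0.21 for Sdhd, -0.073 to 0.083 for Sdhc, -0.0070 to 0.32 for Uqcrc1, -0.037 to 0.26 for Uqcrfs1, -0.098 to 0.13 for Cox6a1, -0.078 to 0.15 for Cox6b1, -0.013 to 0.17 for Cox7a2 and -0.16 to 0.23 for Atp5g2. Each of these 8 genes was below 0 without MF1 replicate 3. Dim spots cannot be told from bright ones in a table of ratios.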
